A study of Mus musculus with 29 samples.

Results

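The genes that encode the proteins of the cytosolic ribosome were followed in mouse blood stem and progenitor cells and in 3 cell populations of the niche around them. They were taken by gene symbol: Rpl or Rps with a number (with an optional letter, digit or paralog ending), Rpsa, Rplp0, Rplp1 and Rplp2. This gave 89 of the 38924 genes in the table of LSK cells (sorted for Sca-1 and Kit and the absence of lineage markers) and 88 of the 18194 genes in the niche table. Of the 89, 50 belonged to the large subunit, 36 to the small subunit and 3 to the stalk (Rplp0, Rplp1, Rplp2), and 84 were annotated as protein-coding. The other 5 (among them Rpl6l, Rps3a2 and Rps3a3) were annotated as processed pseudogenes in GENCODE.

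The LSK cells were collected after transplantation into a wild-type (WT) niche (6 libraries) or a Wnt5a-haploinsufficient niche (5 libraries), the latter labelled Wnt5a. EC (endothelial), OBC (osteoblastic) and MSC (mesenchymal) niche cells were each profiled in 3 WT and 3 Wnt5a libraries. All 29 libraries carried the strain label 129Ly5.1, and cells were isolated by flow sorting. The labels give no age, Wnt5a allele, donor genotype or link between populations and animals, so it cannot be told which libraries share an animal, and p-values measure only the spread between these libraries, which may be technical.

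The ribosome joins amino acids into protein. Its small subunit reads the messenger RNA, its large subunit forms the peptide bond, and its stalk recruits the factors that drive elongation. Each ribosome needs its proteins in matched amounts, and their messenger RNAs typically start with a run of pyrimidines (the 5′-TOP element), through which mTORC1 signalling and LARP1 control their translation. In blood the dose of these proteins matters: loss of 1 copy of Rps19, Rpl5, Rpl11 or several others causes Diamond-Blackfan anaemia in humans.

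Pyrimidine runs near the start were counted in RefSeq sequence. RefSeq (GRCm38.p6) gave starts for 64 of these genes, 76 in all. A C followed by at least 6 bases that were each C or T, lying wholly within the 30 bases from 15 before to 15 from the start, occurred on the transcribed strand in 43.4% of the 76, against 14.2% of all 32851 starts. On the opposite strand the shares were 6.58% and 15.7%. A C followed by 4 C or T letters exactly at the annotated start occurred in 17.1% and 2.51%. The windows below are those of genes on which the later comparisons turn, with the first such run in capitals; Rpsa, Rpl5 and Rpl26 had no run of these letters in the window. Rps24 and Rps27l each have 2 RefSeq starts, of which the one with a run is shown, and the other had none.
Rps9 (chr7:3704026-3704055, plus strand): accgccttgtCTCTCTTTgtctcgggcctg
Rps26 (chr10:128626492-128626521, minus strand): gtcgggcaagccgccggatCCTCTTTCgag
Rps24 (chr14:24490663-24490692, plus strand): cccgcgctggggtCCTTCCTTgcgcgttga
Rpl35 (chr2:39005117-39005146, minus strand): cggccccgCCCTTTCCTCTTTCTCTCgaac
Rps27l (chr9:66946071-66946100, plus strand): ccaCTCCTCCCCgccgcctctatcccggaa
Rpsa (chr9:120127751-120127780, plus strand): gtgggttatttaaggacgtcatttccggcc
Rpl5 (chr5:107900513-107900542, plus strand): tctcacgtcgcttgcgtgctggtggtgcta
Rpl26 (chr11:68901551-68901580, plus strand): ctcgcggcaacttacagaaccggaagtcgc

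LSK libraries held 1254553 to 5775459 reads and niche libraries 10635 to 117989 unique molecular identifiers (UMIs), with OBC the shallowest. LSK libraries were made by Smart-seq2, which covers whole transcripts, and niche libraries by a pooled UMI protocol, and the 2 tables were scaled separately, so levels are not compared between LSK and niche cells. Endothelial markers (10 genes) were detected in all groups and summed to 7656 to 13801 CPM (counts scaled to a common library size, here the plain total) in EC. They reached 10512 to 11485 in MSC WT, 5075 to 7600 in MSC Wnt5a and 1276 to 5100 in OBC. Osteoblastic markers were highest in OBC (1894 to 14719, against 168 to 1388 in EC and MSC), although Alcam was at 0 in both OBC groups and Sp7 was at 0 in EC and MSC. Mesenchymal markers summed to 3588 to 9050 in MSC and 3243 to 7777 in OBC. Endothelial transcripts in MSC WT were thus within the range of EC. In all 3 niche populations, the 8 neutrophil markers summed to more in every Wnt5a library than in any WT library. Their part in the results below was not tested.

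Together the ribosomal protein genes took a larger share of the UMIs in Wnt5a than in WT libraries of MSC and OBC, and not of EC. In MSC the share was 2.77, 2.93 and 3.32% in WT and 5.12, 4.56 and 3.998% in Wnt5a, with means of 3.004 ± 0.284% and 4.56 ± 0.559% (SD, n = 3 each). Every Wnt5a library lay above every WT library. In OBC it was 3.40, 3.23 and 3.70% in WT and 4.69, 5.67 and 5.14% in Wnt5a, with means of 3.44 ± 0.242% and 5.17 ± 0.490% (SD, n = 3 each), again with no overlap. Without Rps9 the OBC share was 3.07, 2.99 and 3.24% in WT and 3.98, 4.12 and 3.66% in Wnt5a, with means of 3.10% and 3.92% and still no overlap. In EC the values were 3.22, 4.61 and 3.03% in WT and 3.99, 3.63 and 3.17% in Wnt5a, which overlapped. The highest of these EC values, from WT replicate 14, came from the library in which haemoglobin took 24.3% of the UMIs. In LSK cells the share ran from 1.39 to 2.46% of the reads in WT (median 1.93%) and from 1.42 to 2.60% in Wnt5a (median 1.84%), and the groups overlapped. In MSC, where the share was higher, summed endothelial markers were lower in every Wnt5a library (5075 to 7600 against 10512 to 11485 CPM) and neutrophil markers higher (2550 to 3687 against 1071 to 1448). Mitochondrial genome transcripts took 2.28, 1.80 and 2.22% of the UMIs in MSC WT and 2.66, 4.43 and 3.39% in MSC Wnt5a, also without overlap. In OBC neutrophil markers were also higher (5901 to 9103 against 2492 to 4795), and mitochondrial genome transcripts took 11.96 to 17.1% of the UMIs in WT libraries but 3.57 to 8.47% in those of Wnt5a. The part of these differences in the share was not tested, and in sorted bulk samples fewer cells of a type and less RNA per cell cannot be told apart.

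**Figure D1:**
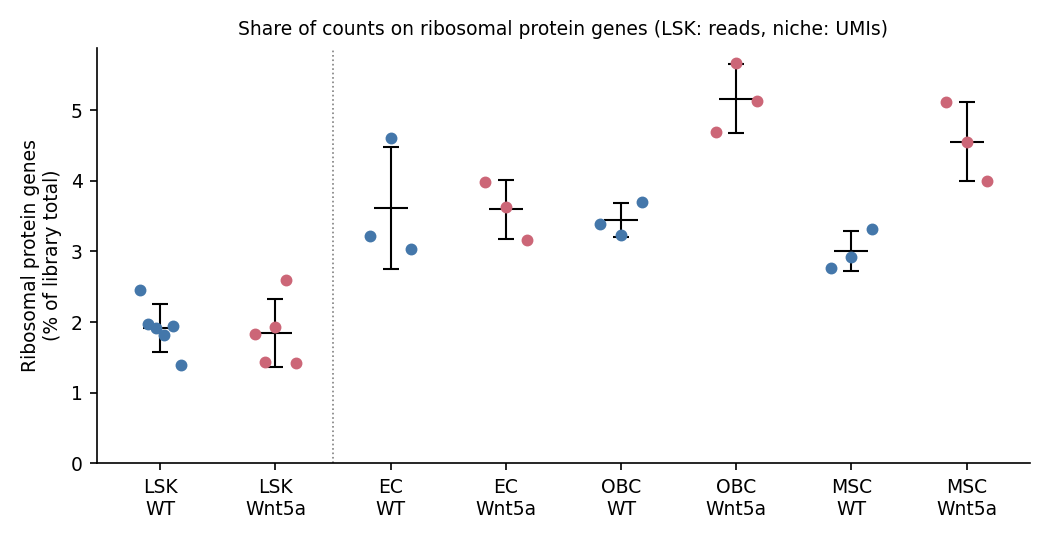
Share of each library's counts on ribosomal protein genes (y axis, percent of reads in LSK and of UMIs in the niche) by group (x axis); points are libraries, blue WT and red Wnt5a, with the mean and SD in black. Wnt5a libraries lie above all WT libraries in OBC and MSC (MSC 3.998 to 5.12% against 2.77 to 3.32%), and the groups overlap in EC and LSK.

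Within the set, reads were spread over the genes very unevenly in LSK cells. Per kilobase of a representative transcript, summed over the 11 libraries, Rps14 of the small subunit was highest with 46481 reads, and among the next were Rpl32 with 29679, Rpl22 with 25331 and Rps29 with 24151. The paralog Rps27l had 22102, above its parent Rps27 with 3243 reads per kilobase. Such levels depend on the transcript chosen, which for Rpl22 had 474 bases, where all its annotated exons covered 2911. Lowest were 2 paralogs known for restricted expression, the testis paralog Rpl10l (3 reads in all) and the muscle paralog Rpl3l (7 reads), and the pseudogene-annotated Rps12l1 (17 reads). Rpl39l, a paralog best known from testis, had 80 reads and Rps4l had 45. Rpl28, a standard large-subunit protein, had only 185 reads in LSK cells and 1 UMI in the niche. Entries named as its pseudogenes held 5107 reads and 157 UMIs. How reads that match several copies were counted is not known, so the level of Rpl28 itself is uncertain.

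Ribosomal protein genes have many near-identical processed pseudogenes, and the genes with less unique sequence had lower median levels in LSK cells. The median was 3519 reads per kilobase for the 16 members with under 20% of their transcript's 50-base stretches unique among GENCODE transcripts, 6814 for the 39 with 20 to 60%, and 10747 for the 25 with 60% or more. These medians leave out the paralogs Rpl3l, Rpl10l, Rpl39l and Rpl7l1, which all had over 60% unique stretches. Their levels were 5.09, 2.93, 99.4 and 1518 reads per kilobase, so the last median would be lower with them. Across 84 genes, these paralogs included, the rank correlation of level and uniqueness was weak (Spearman's rho = 0.19), a description over genes that share the same libraries. Entries named as pseudogenes of these genes held 35.1 to 37.9% of the counts of both kinds together in LSK libraries and 25.2 to 42.1% in niche libraries. Rps27 had 1.35% unique stretches and Rpl9 6.68%. Levels of such genes are uncertain, because it is not known how reads that match several copies were counted.

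Of the members, 84 were tested in LSK cells and 54 in the niche, where 34 did not pass the filter on low counts. Among those 34 were Rps6, Rpl10, Rps27 and Rpl22l1, and 13 of the 88 had fewer than 20 UMIs over all 18 libraries. The tested members are therefore the better counted ones and do not stand for all.

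In MSC most ribosomal protein genes had higher levels in Wnt5a than in WT, although no gene passed the test by itself. The log2 fold change (Wnt5a over WT) was positive for 46 of 54 tested members, with a median of 0.70 and a range from -1.53 to 1.59, where the median over all 1099 tested genes was -0.03. Median log2 changes were 0.71 for 24 small-subunit genes, 0.57 for 27 large-subunit genes and 0.77 for the 3 stalk genes. In 27 of the 54 every Wnt5a library lay above every WT library, as it did in 12.7% of all genes tested, and in 2 every Wnt5a library lay below, against 12.9% of all genes. With DESeq2-type (RLE) scaling the median of all genes was -0.24 and that of the members 0.50, so that relative to all genes the members stood at 0.74 under either scaling.

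No member passed edgeR's test in MSC at an adjusted p under 0.05, which 0.455% of all genes did. 21 of the 54 (38.9%) had an unadjusted p under 0.05, against 18.5% of all genes, and voom called 0. DESeq2 called 6 (Rps26, Rpl26, Rpsa, Rplp2, Rps21 and Rps24, all higher) of the 34 members to which it gave an adjusted p, which is 17.6%, against 15.5% of all genes. A fit of the 6 MSC libraries alone called 11 of 48 (10 higher and 1 lower), or 22.9%, against 10.1% of all genes. Without EC WT replicate 14, which enters the shared estimate of the spread, 6 of 56 members passed (10.7%, against 3.43% of all genes). Without EC WT replicate 15 it was 3 of 56 (5.36% against 1.98%), without MSC WT replicate 3 it was 2 of 56 (3.57% against 1.31%), and without MSC Wnt5a replicate 4 it was 1 of 58 (1.72% against 0.940%).

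Rps26 (ENSMUSG00000025362, chromosome 10, 128624534 to 128626747, minus strand, GRCm38), a small-subunit protein at the mRNA exit channel, stood nearest to the threshold. Its TMM-scaled level was 555, 648 and 777 CPM (from 29, 27 and 39 UMIs) in MSC WT and 1640, 2284 and 1354 in Wnt5a. All Wnt5a libraries lay above all WT libraries (log2 fold change 1.42, SE 0.40, edgeR adjusted p = 0.0559).

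Rpl26 (ENSMUSG00000060938, chromosome 11, 68901583 to 68906989, plus strand), a large-subunit protein that also binds p53 mRNA, had 459, 432 and 777 CPM in WT and 2140, 1311 and 1136 in Wnt5a. The groups did not overlap (log2 fold change 1.42, SE 0.40, edgeR adjusted p = 0.0559). Rpsa, the small-subunit protein known also as the laminin receptor, had 191, 168 and 299 CPM in WT and 273, 1079 and 568 in Wnt5a. Here the lowest Wnt5a library fell inside the WT range (log2 fold change 1.59, SE 0.46, edgeR adjusted p = 0.0600).

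The P-stalk gene Rplp0 had 669, 816 and 677 CPM in MSC WT and 1230, 1332 and 1048 in Wnt5a. These groups were also apart, with a smaller log2 fold change of 0.74 (SE 0.39, with an adjusted p of 0.310 in edgeR). Rps19 stood at 0.50 (SE 0.36) on the log2 scale and Rpl22 at 0.70 (SE 0.47), and for both the groups overlapped. Rps4x stood at -0.14 (SE 0.45) and Rpl36al at 0.79 (SE 0.63), also with overlap. Rpl5 and Rpl11, which bind 5S rRNA and restrain MDM2 when ribosome assembly stalls, stood at -0.04 (SE 0.49) and -0.02 (SE 0.36).

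Rps27l, a p53-inducible paralog of Rps27, went the other way in MSC. It had 383, 288 and 299 CPM in WT and 46, 148 and 109 in Wnt5a, from 20, 12 and 15 UMIs against 1, 7 and 5. Every Wnt5a library lay below every WT library (log2 fold change -1.53, SE 0.61, edgeR adjusted p = 0.170). Cdkn1a, the main p53 target among the other genes considered, stood at -1.30 on the log2 scale (SE 0.53, adjusted p of 0.181 in edgeR). The other p53-linked genes considered are not reported here, and whether p53 activity differed was not tested.

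**Figure D2:**
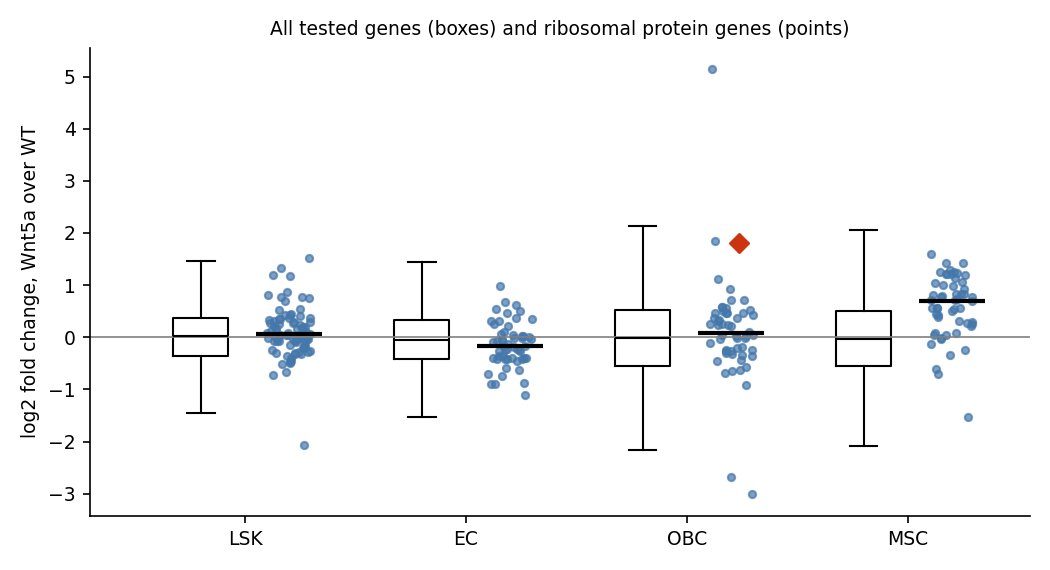
Log2 fold change of Wnt5a over WT (y axis) in LSK, EC, OBC and MSC; boxes show the median, quartiles and 1.5-times-range whiskers of all tested genes, points the tested ribosomal protein genes with their median as a bar, and the red diamond the gene past the test (Rps9 in OBC). The median of the members is 0.70 in MSC and lies near that of all genes in the other populations; the OBC points farthest from 0 rest on few UMIs.

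Rps9 was the ribosomal protein gene that rose in OBC from Wnt5a niches. Rps9 (ENSMUSG00000006333, chromosome 7, 3703993 to 3706897, plus strand) encodes a small-subunit protein needed for accurate decoding. It overlapped no other gene's exons, and 67.0% of its transcript's 50-base stretches were unique. It had 3996, 3082 and 4704 CPM in OBC WT (85, 71 and 49 UMIs) and 7688, 17259 and 16038 in OBC Wnt5a (127, 273 and 203 UMIs). All Wnt5a libraries were above all WT libraries, the lowest by a smaller margin. The log2 fold change was 1.81 (SE 0.45, edgeR adjusted p = 0.0257). The call was lost in a fit of the 6 OBC libraries alone (edgeR adjusted p = 0.0903) and without WT replicate 7 (0.100) or 8 (0.238) or Wnt5a replicate 11 (0.108) or 12 (0.141), with log2 fold changes from 1.61 to 1.85.

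Rps9 took 7.39 to 12.4% of all ribosomal protein UMIs in OBC WT and 15.1 to 28.8% in OBC Wnt5a. In EC it took 2.31 to 5.95%, in MSC WT 3.57 to 4.37%, in MSC Wnt5a 4.79 to 6.23%, and in LSK cells 1.58 to 3.42% of the set's reads. Its share of the set was higher in every OBC Wnt5a library than in any other niche library. Osteoblastic markers summed to 4795 to 14719 CPM in OBC WT and 1894 to 4893 in OBC Wnt5a, and their part in the Rps9 result was not tested.

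Rps9 was the only member of 54 to pass edgeR's test in OBC, which 1.27% of all genes did, and 5 members (9.26%) had an unadjusted p under 0.05, against 8.37% of all genes. The log2 fold change was positive for 31 of 54, with a median of 0.08 against -0.01 over all genes. In 10 members every Wnt5a library lay above every WT library, as it did in 7.37% of all genes, and in 2 below, against 6.46%. Those above included Rpl22, Rplp1, Rpl32, Rpl26, Rps24, Rpl8 and Rps26. Rpl22, a large-subunit protein dispensable for the ribosome but needed in lymphoid development, had 564, 912 and 0 CPM in WT and 1332, 1328 and 948 in Wnt5a (log2 fold change 1.11, SE 0.51, edgeR adjusted p = 0.517).

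Rps28, a small-subunit gene mutated in some patients with Diamond-Blackfan anaemia, had 3, 9 and 4 UMIs in OBC WT and 2, 0 and 0 in Wnt5a. That is 16 of 66495 UMIs against 2 of 49177, and although the groups did not overlap the gene did not pass (log2 fold change -2.67, SE 0.996, edgeR adjusted p = 0.333). Rpl5 had 1 UMI in all 6 OBC libraries together, too low for a fold between the genotypes. Rplp0, Rps19 and Rpl11 had log2 fold changes of -0.01 (SE 0.45), -0.02 (SE 0.50) and 0.02 (SE 0.45) in OBC, and Rpsa one of -0.45 (SE 0.49), all with overlapping groups. Rps27l, with 3 UMIs in OBC WT and 9 in OBC Wnt5a, also had overlapping groups.

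**Figure D3:**
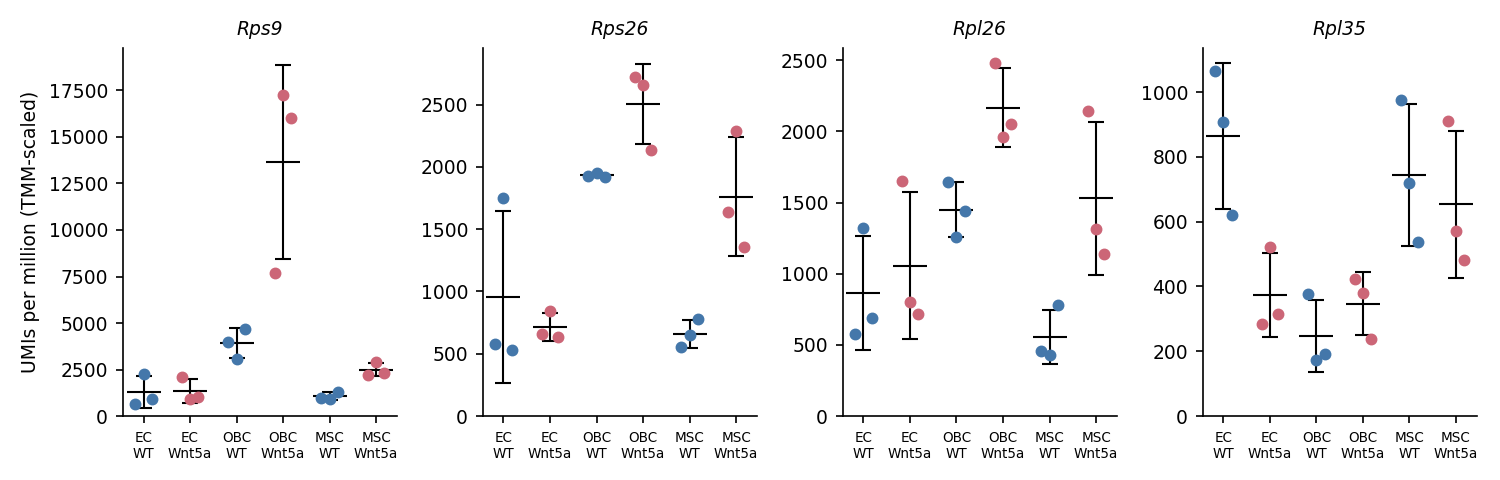
TMM-scaled CPM (y axes, each from 0) of Rps9, Rps26, Rpl26 and Rpl35 by niche group; points are libraries, blue WT and red Wnt5a, with the mean and SD in black. Rps9 is highest in OBC Wnt5a (7688 to 17259), Rps26 and Rpl26 lie higher in MSC Wnt5a than in MSC WT, and Rpl35 lies lower in EC Wnt5a than in EC WT.

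In EC no ribosomal protein gene passed edgeR's test, which 0.364% of all genes did. Of 54 members, 3 (5.56%) had an unadjusted p under 0.05, against 8.10% of all genes, and DESeq2 and voom both called 0. The log2 fold change was positive for 17, with a median of -0.18 against -0.05 over all genes. Without WT replicate 14, the library rich in haemoglobin, the median was 0.23 and 34 of 56 were positive, so the direction of the set in EC rests on that library. In 1 member (Rpl18) every Wnt5a library was above every WT library, against 5.82% of all genes. In 3 (Rpl35, Rpl34 and Rpl10a) every Wnt5a library was below, against 8.46%.

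Rpl35 (ENSMUSG00000062997, chromosome 2, 39001580 to 39005624, minus strand), a large-subunit protein near the exit tunnel, had the smallest p in EC. It had 1065, 907 and 620 CPM in WT and 284, 523 and 317 in Wnt5a, without overlap (log2 fold change -1.11, SE 0.37, edgeR adjusted p = 0.237). Exons of Arpc5l and Wdr38 cover 66.2% of its annotated exons, so without strand their reads cannot be told from its own. In Rpl34 the log2 fold change was -0.89 (SE 0.42), with an adjusted p of 0.549 in edgeR. Rps27l (-0.90, SE 0.49), Rps4x (-0.58, SE 0.40), Rplp0 (-0.42, SE 0.38), Rps19 (-0.39, SE 0.35), Rpl22 (-0.41, SE 0.46) and Rpl36al (-0.42, SE 0.57) had negative log2 fold changes in EC and overlapping groups. Rpsa (0.47, SE 0.44) and Rpl5 (0.50, SE 0.47) had positive ones, and Rpl11 stood at -0.20 (SE 0.35), also with overlap.

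Averaged over EC, OBC and MSC, Rps9 rose in Wnt5a niches (log2 fold change 1.02, SE 0.26, edgeR adjusted p = 0.0203). It was the only one of 54 members to pass, where 3.09% of all genes did, and 12 (22.2%) had an unadjusted p under 0.05, against 16.6% of all genes. The mean of Rps9 does not show a rise in every population. In EC its share of the UMIs overlapped between the genotypes, at 0.0745 to 0.201% in WT and 0.108 to 0.237% in Wnt5a. Without EC WT replicate 14, 8 of 56 members passed, all higher (14.3%, against 5.80% of all genes), and without MSC WT replicate 3, 3 did (5.36% against 3.04%). The call of Rps9 was lost without MSC WT replicate 1 (edgeR adjusted p = 0.0576) or 2 (0.0586), EC WT replicate 13 (0.0512) or MSC Wnt5a replicate 5 (0.0520). Next came Rpl26 (0.74, SE 0.23, edgeR adjusted p = 0.0576) and Rps24 (0.69, SE 0.22, edgeR adjusted p = 0.0729), which both passed with DESeq2 (3 of 41 members with an adjusted p, or 7.32%, against 6.71% of all genes). Of the 54, 42 were positive, with a median of 0.21 against -0.05 for all genes. Whether the genotype difference itself varied between the populations was tested as an interaction, which 0 of 54 members passed, against 0.546% of all genes. At an unadjusted p under 0.05 it was 8 members (14.8%), Rps26 with the smallest, against 8.37% of all genes. No single member is therefore shown to differ between the populations in its genotype difference. Whether the larger median in MSC differs from that in OBC or EC was not tested.

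In regenerating LSK cells ribosomal protein genes as a set stood where other genes did. None of 84 passed edgeR's test, which 0.0229% of the 13098 genes tested did, 15 (17.9%) had an unadjusted p under 0.05, against 18.4% of all genes, and voom called 0. The log2 fold change was positive for 47 and negative for 37, with a median of 0.06 against 0.02 over all genes, 0.04 for 34 small-subunit genes and 0.07 for 47 large-subunit genes. No member lay above WT in every Wnt5a library, which 1.26% of all genes did, and 1 lay below, against 1.55%.

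The genes with the smallest p in LSK cells were the paralogs Rps27l and Rps27 and the large-subunit gene Rpl35, all with higher means in Wnt5a. Rps27l (ENSMUSG00000036781, chromosome 9, 66946086 to 66949516, plus strand) ran from 187 to 366 CPM in the 6 WT libraries (median 233) and was 259, 571, 539, 1145 and 444 in the 5 Wnt5a libraries. 4 of the 5 Wnt5a libraries lay above all of WT and 1 within it (log2 fold change 1.17, SE 0.30, edgeR adjusted p = 0.0902). In MSC, by contrast, all Wnt5a libraries were below WT for this gene, in a separate table and a separate fit.

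Rps27, which shares nearly all of its sequence with other loci, ran from 12.9 to 30.1 CPM in WT (median 22.6) and was 23.2, 61.5, 33.3, 178 and 35.8 in Wnt5a. The groups overlapped in 1 library (log2 fold change 1.52, SE 0.45, edgeR adjusted p = 0.115). Rpl35 ran from 17.4 to 30.9 in WT (median 22.1) and was 29.7, 25.2, 60.5, 118 and 34.9 in Wnt5a, where 2 libraries fell within the WT range (log2 fold change 1.19, SE 0.37, edgeR adjusted p = 0.127).

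Replicate 4 of Wnt5a was the highest library for all 3 genes, and without it their log2 fold changes were 0.78 (Rps27l), 0.74 (Rps27) and 0.68 (Rpl35). DESeq2 called these 3 and Rpl39 higher, 4.76% of the members, where it called 5.41% of all genes. Without Wnt5a replicate 5, edgeR called 6 members higher, Rps27l, Rps27, Rpl35, Rpl39, Rpl24 and Rpl31, which is 7.14% against 8.32% of all genes. In that replicate immunoglobulin genes took 10.17% of the reads and B and plasma cell markers summed to 36326 CPM, against 0.360 to 1.34% and 2143 to 6169 CPM in the other Wnt5a libraries. Among the libraries with 4-digit label numbers alone (6 WT and 3 Wnt5a), it called 3 other members lower, among them Rpl30 (-1.03) and Rps6 (-1.34), on the log2 scale, which is 3.57% against 6.34% of all genes. Satellite transcripts took 0.341 to 6.73% of reads in the Wnt5a libraries and 0.0836 to 0.417% in WT, and mitochondrial transcripts 8.96% in Wnt5a replicate 4. Their part in these calls was not tested.

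Rplp0, often used as a reference gene, was the member whose Wnt5a libraries all lay below WT in LSK cells. It ran from 308 to 527 CPM in WT (median 322) and was 289, 243, 292, 279 and 281 in Wnt5a. The margin between the groups was small (log2 fold change -0.39, SE 0.17, edgeR adjusted p = 0.230).

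None of the remaining core genes passed in LSK cells. Rps6, the S6 kinase substrate, had a log2 fold change of -0.72 (SE 0.36) and Rpl22l1, the paralog regulated by Rpl22, one of 0.77 (SE 0.35), with edgeR adjusted p of 0.301 and 0.252. Rps19, Rpl5, Rpl11 and Rpsa lay between -0.02 and 0.09, with SE of 0.21 to 0.24. The X-linked Rps4x (-0.15, SE 0.17) and Rpl10 (0.14, SE 0.19) and the paralogs Rpl36a (-0.32, SE 0.26) and Rpl36al (-0.28, SE 0.23) also had overlapping groups.

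**Figure D4:**
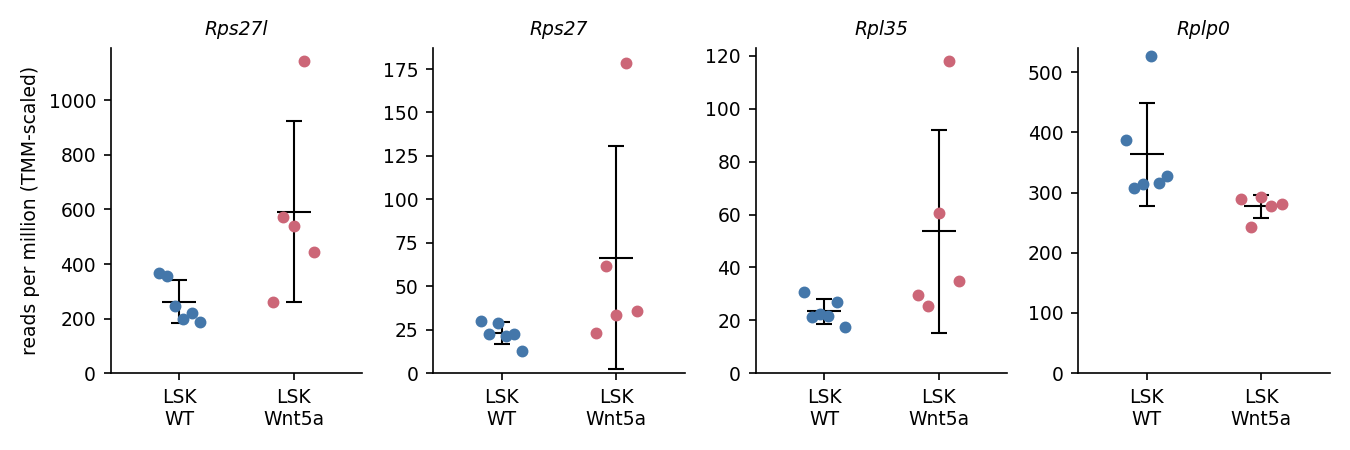
TMM-scaled CPM (y axes, each from 0) of Rps27l, Rps27, Rpl35 and Rplp0 in LSK cells from WT (blue) and Wnt5a (red) niches; points are libraries, with the mean and SD in black. Wnt5a replicate 4 is highest for the first 3 genes (1145, 178 and 118), and Rplp0 lies lower in all Wnt5a libraries (243 to 292) than in WT (308 to 527).

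More ribosomal protein genes passed between niche populations than between genotypes, in contrasts with more libraries on each side. Against the mean of EC and MSC, 15 of 54 members were higher in OBC and 9 lower by edgeR's test, which 46.04% of all genes passed, so the share of members past it (24 of 54) was near the background. The median over members was -0.09 and over all genes -0.24. Without the low-count filter 1 member passed higher and 16 lower. The 46.04% does not apply to that fit, whose share of all genes passing is not given here.

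In OBC the small-subunit genes Rps9 (log2 difference 2.32, SE 0.26), Rpsa (1.34, SE 0.29), Rps26 (1.22, SE 0.24) and Rps24 (1.10, SE 0.24) and the large-subunit genes Rpl32 (1.15, SE 0.26) and Rpl8 (0.98, SE 0.24) were higher, each with an edgeR adjusted p of 0.000841 or less. Rps26 had 1928, 1954 and 1920 CPM in OBC WT, against 580, 1754 and 530 in EC WT and 555, 648 and 777 in MSC WT. Every OBC WT library lay above all of these, but below the highest of the MSC Wnt5a libraries given above.

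Lower in OBC were Rpl5 (-5.00, SE 0.90, edgeR adjusted p = 1.49e-05) and Rpl34 (-1.92, SE 0.46, edgeR adjusted p = 0.000586). Rps19 was also lower (-1.18, SE 0.28, edgeR adjusted p = 0.000529), as were Rpl35 (-1.07, SE 0.31) and Rps3 (-0.86, SE 0.29). Rpl5 was almost absent: 1 UMI among 115672 in OBC, against 69 of 248173 in MSC and 101 of 478853 in EC. Set against EC and MSC together the summed rate was 27.0-fold lower, with a counting interval of 4.79 to 1075 that covers counting error only. Rpl34 had 10 UMIs in OBC and 295 in EC and MSC, a 4.69-fold lower rate (2.52 to 9.89). With so few UMIs in OBC, Rpl5 and Rpl34 passed the low-count filter only through EC or MSC libraries. Their lower level in OBC was thus partly set by that filter, and their p-values are no independent support for it. Rps19, the gene most often mutated in Diamond-Blackfan anaemia, had 658, 347 and 384 CPM in OBC WT and 941 to 1658 in EC WT, without overlap. Exons of another gene, Fam69a, and a small nucleolar RNA cover 26.7% of the annotated exons of Rpl5.

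**Figure D5:**
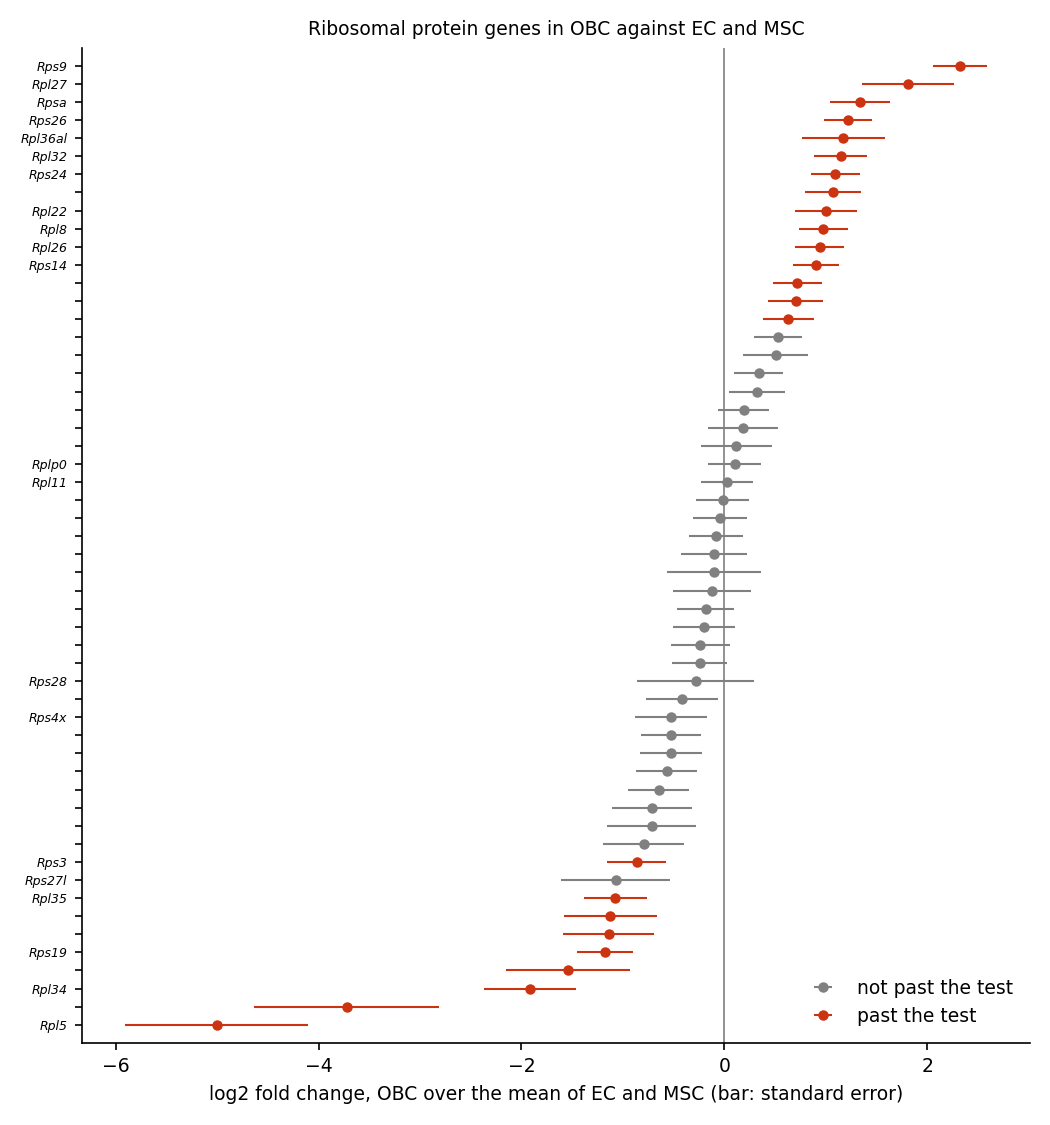
Log2 fold change of the tested ribosomal protein genes in OBC over the mean of EC and MSC (x axis, bars are standard errors), ordered by size, with the symbols of some genes named in the text; red marks those past edgeR's test, grey the rest. Rps9 (2.32) stands at 1 end and Rpl5 (-5.00), which rests on 1 OBC UMI, at the other.

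Seen from EC, 5 members were higher and 9 lower than in the mean of OBC and MSC, where 40.04% of all genes passed. With RLE scaling the split was 9 higher and 8 lower, and without EC Wnt5a replicate 17 it was 5 and 4. The share of all genes passing in these other fits is not given here. Among the higher ones were Rpl5 (2.19, SE 0.60), Rpl34 (0.99, SE 0.33), Rps19 (0.70, SE 0.23) and Rps3 (0.68, SE 0.24). Among the lower ones were Rps9 (-1.41, SE 0.29), Rpsa (-1.21, SE 0.28), Rpl27 (-1.65, SE 0.45), Rps26, Rpl32, Rps24, Rpl8 and Rpl22. Under the 25 alternatives, the call was lost in 13 for Rpl22, 6 for Rps24, 4 for Rpl32, 2 for Rps3 and 1 each for Rpl27, Rps26 and Rpsa. The contrasts between populations share libraries, so the opposite signs in OBC and EC are not separate observations. From MSC, Rpl5 was higher (2.82, SE 0.56, edgeR adjusted p = 0.000813) and Rps9 lower (-0.91, SE 0.28, edgeR adjusted p = 0.0427), where 6.73% of all genes passed. The other side averages EC with OBC. Rpl5 had 69 of 248173 UMIs in MSC, 101 of 478853 in EC and 1 of 115672 in OBC. Mean Rps9 shares (WT, Wnt5a) were 0.116 and 0.253% of UMIs in MSC, 0.127 and 0.152% in EC, 0.342 and 1.25% in OBC. MSC against EC alone was not tested, so neither value shows a difference between MSC and EC. The EC values of Rpl5 and Rps9 above also average in OBC. The call of Rps9 in MSC was lost when any of 12 libraries was left out by itself, with log2 differences from -0.98 to -0.71.

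Genes that act beside the ribosomal proteins gave the following counts. In MSC all 6 tested elongation factors had a positive log2 fold change (median 0.62), as did 9 of 14 initiation factors (median 0.28) and the 3 tested partner proteins, Fau, Rack1 and Npm1 (median 0.49), and none passed edgeR's test. Of 5 tested ribosome biogenesis genes, 4 were positive in MSC (median 1.41), and nucleolin (Ncl), which packages rRNA precursors in the nucleolus, rose in the niche mean (log2 fold change 0.95, SE 0.27, edgeR adjusted p = 0.0343). In OBC against the other populations 4 of these 5 were higher, Ncl by 2.27 (SE 0.27) and Npm1, a nucleolar chaperone of ribosome export, by 1.96 (SE 0.39). In that contrast 46.04% of all genes passed in either direction, and with 5 genes the count is a description only. Npm1 counts among both the partner proteins and the biogenesis genes. In LSK cells 26 of 40 biogenesis genes were positive (median 0.22), 50 of 76 mitochondrial ribosomal protein genes negative (median -0.18), and none passed. The 16 tested genes linked to Diamond-Blackfan anaemia, which are members of the set, had median log2 changes of 0.10 in EC, 0.03 in OBC and 0.60 in MSC, beside 0.20 for the 19 tested in LSK cells.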

How the data were processed

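RNA was sequenced from sorted LSK cells by Smart-seq2 and from sorted EC, OBC and MSC niche cells by a UMI protocol with barcoded, pooled cDNA, per the labels' protocols. The deposited values are counts per Ensembl gene, reads in the LSK table and UMIs in the niche table. Alignment used STAR and counting featureCounts on mm10/GRCm38, per the submitters' processing notes. Their versions, the annotation release, strand, the treatment of reads with several matches and the collapsing of UMIs were not given in the sources used here. All value columns were used, and 28 spike-in entries of the niche table stayed out of totals. Symbols were found for 37607 of 38924 and 17973 of 18194 genes.

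The tables were fitted separately with the robust quasi-likelihood test of edgeR 4.0.16 (R 4.3.3) after TMM scaling, with p-values adjusted by Benjamini-Hochberg over all genes tested; filterByExpr removed low genes (min.count 10, min.total.count 15). LSK had 13098 genes tested with a common biological coefficient of variation of 0.448. The niche had 1099 and 0.318, in 1 fit of all 18 libraries that share an estimate of the spread. A gene passed at an adjusted p under 0.05. Shares of counts are of the plain library total, levels are TMM-scaled CPM, and intervals on counts are exact 95% ones for counting error only, with a floor of 3 counts. DESeq2 1.42.0, limma voom (limma 3.58.1), RLE scaling, TMM without these genes, no filter, addition of pseudogene counts, removal of unevenly shared gene classes, fits of 1 population and leaving out each library were the alternatives. The share without Rps9 was added after seeing the data. Tables were handled in Python 3.11.15 with pandas 2.3.3 and scipy 1.17.1.

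On simulated counts with 100 genes at each change, the LSK test called 86% at a log2 change of 2 and 13% at 1, and the OBC test called 41% and 10%. A gene's uniqueness is the percent of 50-base stretches of a representative GENCODE transcript found in no other gene's transcripts. Promoter windows come from RefSeq, GRCm38.p6.

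The members and lists were chosen with earlier results of these data known. Genes were named by a rule: those past the test (at most 6 in each direction where over 10 passed), the 3 with the smallest p in each comparison, and a set of core genes and paralogs. Others are named only to say which genes make up a count. Some members count in the totals and medians but are not reported here by name.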

Additional observations from a re-analysis of the deposited data

Results flagged for a closer look

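Of 40 sets of values over the 5 or 6 LSK libraries of a group, 3 held a library far from the others, where chance gives about 1 in 20. In LSK WT, Rplp0 stood at 527 CPM in replicate 4, while the other WT libraries lay between 308 and 388. In LSK Wnt5a, Rplp0 stood at 243 in replicate 2, below the other Wnt5a libraries, which lay between 279 and 292. In LSK Wnt5a, Rps27 stood at 178 CPM in replicate 4, from 239 reads, while the other Wnt5a libraries lay between 23.2 and 61.5.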

How the results depend on the processing

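Depth limits the niche results: OBC libraries held 10635 to 29772 UMIs, and 34 of 88 ribosomal protein genes were not tested there. No paired analysis was possible because the niche replicate numbers differ between all groups and the LSK numbers only follow accession order. Fits of 1 population apply only to the contrasts within a population, and the interaction was not run with DESeq2 or voom. RLE scaling moved the median of all genes from -0.03 to -0.24 in MSC (Wnt5a against WT), from 0.19 to 0.29 for EC against the other populations and from -0.24 to -0.35 for OBC against them. Relative to that median the members stayed at 0.74, -0.05 and 0.15.

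Rps16, which did not pass the low-count filter in the niche, was called in both directions for EC against the others: its log2 difference was 1.20 with no filter and 0.97 without OBC Wnt5a replicate 12, but -0.66 with pseudogene counts added. No other member was called in both directions in any of the 8 contrasts. The following values moved by more than the limit used (1.5 times for counts, the spread for others), and the cause was not tested. In LSK cells 1 member passed with no filter, 4 with DESeq2 (4.76%, against 5.41% of all genes) and 3 among 4-digit labels (3.57% against 6.34%). In OBC, 0 of 23 passed in a fit of OBC alone, against 7.95% of all genes. In MSC, 3 passed with TMM without the members and 2 without unevenly shared genes. With DESeq2 it was 6 (17.6% against 15.5%), and in a fit of MSC alone 11 (22.9% against 10.1%). In the niche mean 3 passed with DESeq2 (7.32% against 6.71%) and 2 with voom (3.70% against 3.64%). With pseudogene counts added it was 4, and without unevenly shared genes 2. For EC against the others the median log2 difference was 0.64 with no filter and -0.14 with pseudogene counts, and 22 members passed with the latter. For OBC against the others the median was -0.74 with no filter, and for MSC 1 member passed with no filter. Counts given without a share of all genes beside them show dependence on the processing only and are not results about the members. With pseudogene counts the share was 5.18 and 5.26% in EC (WT and Wnt5a), 3.02 and 2.94% in LSK, 4.51 and 6.88% in MSC and 5.53 and 7.85% in OBC. Without unevenly shared genes in the total it was 4.22% in EC Wnt5a, 3.45 and 5.73% in MSC and 4.99 and 7.06% in OBC, and without Rps9 it was 3.10 and 3.92% in OBC.

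With each library left out in turn, 0 to 6 members passed in LSK, 0 in EC, 0 to 1 in OBC, 0 to 6 in MSC, 0 to 8 in the niche mean, 9 to 19 for EC against the others, 19 to 25 for OBC and 1 to 2 for MSC. The highest counts in LSK, MSC and the niche mean were 7.14, 10.7 and 14.3% of members, against 8.32, 3.43 and 5.80% of all genes. For the contrasts between populations the share of all genes was not set beside these ranges. The median log2 change ranged from -0.34 to 0.23 in EC (0.23 without EC WT replicate 14). Of the values of single genes under the alternatives, 2473 counted as unchanged. These either passed both times in the same direction, or passed neither time and moved by less than their standard error. Some of those without a call changed sign, such as Rpl11 in OBC. A further 62 no longer passed, 52 newly passed and 41 without a call moved by more than their standard error.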
